A study of Mus musculus with 57 samples.

Results

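Ang4, Lyz1, Itln1, Pla2g2a and Defa35 are 5 antimicrobial genes of the kind that Paneth cells secrete, and they are followed here across 57 arrays of mouse distal colon and colon tumors. The members were proposed by name, with earlier results of these data known, and they are 5 of the 22180 genes with a named probe set. Each of them had 1 single-symbol probe set, so the rule of taking a gene's brightest probe set made no choice among these genes. The study used 2 genotypes of C57BL/6 mice: INSRfl/fl littermates, whose insulin receptor gene is flanked by loxP sites, and villin-CRE-INSR-/- mice, in which Cre driven by the villin promoter inactivates the receptor in intestinal epithelium (called knockout below). Both genotypes were measured as untreated colon (10 fl/fl and 10 knockout arrays), as colon after AOM+DSS (10 and 10) and as tumor after AOM+DSS (8 and 9). AOM, azoxymethane, is a colon carcinogen and was injected at 7.4 mg/kg, and DSS, dextran sulfate sodium, injures the colon epithelium and was given at 3% for 7 days in week 2. Mice were 18 to 24 weeks old, described as female in the treatment protocol, and treated mice were killed in week 5. The labels call the samples biological replicates and do not say which tumors and colons shared a mouse.

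Paneth cells sit at the base of small-intestinal crypts beside the stem cells, where Wnt signalling drives their maturation, and they release antimicrobial proteins into the lumen. The mouse distal colon normally lacks them, and its crypt base holds goblet-like secretory cells instead. Lyz1 encodes the Paneth cell lysozyme, which cuts bacterial cell walls, whereas its neighbour Lyz2 encodes the lysozyme of macrophages. Defa35 belongs to the alpha-defensins, small peptides that disrupt microbial membranes and that the protease Mmp7 activates in mice. Ang4 encodes a ribonuclease of the angiogenin family with bactericidal action, made by Paneth cells and goblet cells. Itln1 encodes intelectin 1, a lectin that binds sugars on microbial surfaces. Pla2g2a encodes a secreted phospholipase that attacks bacterial membranes. It is the Mom1 locus, a modifier of intestinal tumor number, and it is disrupted in the C57BL/6 strain, where the reference annotation lists it as a transcribed pseudogene, so its values are transcript levels and say nothing of enzyme.

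The RefSeq promoter table of build GRCm38.p6 held 4 of the 5 members. Their sequences, from 250 bases before to 50 bases after the gene start, are shown because these genes were high together in tumors, and that of Lyz2 because it lies next to Lyz1 with no gene between them in the reference order and gave another pattern. Each is written on the gene's strand, with CTTTGA or its reverse complement TCAAAG, the core bound by the Wnt-responsive TCF/LEF factors, in capitals. The Defa35 promoter is at chr8:21064788-21065087 on the plus strand, Lyz1 at chr10:117292819-117293118, Lyz2 at chr10:117282223-117282522, Itln1 at chr1:171535245-171535544 and Ang4 at chr14:51773541-51773840, these last 4 on the minus strand.
Defa35: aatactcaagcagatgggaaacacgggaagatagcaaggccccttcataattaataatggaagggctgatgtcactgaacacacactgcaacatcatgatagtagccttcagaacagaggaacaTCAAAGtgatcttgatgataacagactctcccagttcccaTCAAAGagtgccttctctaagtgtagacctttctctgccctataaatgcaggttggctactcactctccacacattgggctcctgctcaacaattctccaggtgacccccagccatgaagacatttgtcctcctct
Lyz1: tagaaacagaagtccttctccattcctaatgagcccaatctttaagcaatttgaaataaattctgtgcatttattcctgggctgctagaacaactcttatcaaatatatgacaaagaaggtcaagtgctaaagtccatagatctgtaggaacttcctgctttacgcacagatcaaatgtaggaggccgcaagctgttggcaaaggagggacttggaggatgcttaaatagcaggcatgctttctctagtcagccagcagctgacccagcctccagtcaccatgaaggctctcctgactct
Lyz2: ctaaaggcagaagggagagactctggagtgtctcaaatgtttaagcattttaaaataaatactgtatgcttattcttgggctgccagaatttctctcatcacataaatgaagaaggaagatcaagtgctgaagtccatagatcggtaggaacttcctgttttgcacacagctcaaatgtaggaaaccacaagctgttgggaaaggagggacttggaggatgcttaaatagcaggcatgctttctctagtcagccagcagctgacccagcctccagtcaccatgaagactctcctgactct
Itln1: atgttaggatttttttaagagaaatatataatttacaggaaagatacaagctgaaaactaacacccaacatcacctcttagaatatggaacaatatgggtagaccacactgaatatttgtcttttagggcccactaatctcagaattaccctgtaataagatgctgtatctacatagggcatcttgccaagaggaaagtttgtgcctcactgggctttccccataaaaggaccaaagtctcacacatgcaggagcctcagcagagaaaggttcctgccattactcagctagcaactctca
Ang4: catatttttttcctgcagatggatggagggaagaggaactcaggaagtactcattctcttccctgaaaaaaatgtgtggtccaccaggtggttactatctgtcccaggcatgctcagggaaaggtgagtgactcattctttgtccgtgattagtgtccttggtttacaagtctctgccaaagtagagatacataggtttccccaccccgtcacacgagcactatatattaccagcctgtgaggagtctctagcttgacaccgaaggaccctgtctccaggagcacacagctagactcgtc
The TCF/LEF core occurred at 2 places in the Defa35 promoter, starting at positions -126 and -86 from the gene start, and at 0 places in those of Lyz1, Lyz2, Itln1 and Ang4. On both strands, 16.0% of the 32851 promoters of that table held it. Of 3 further motifs searched on both strands, the E-box CAGCTG was found once each in Lyz1 and Lyz2 (16.3% of all promoters), the caudal-type TTTATG once each in Itln1 and Lyz2 (11.9%), and the STAT6 motif, TTC and GAA with 4 bases of any kind between them, in none of the 5 (6.95%). The Lyz1 and Lyz2 promoters were identical at 249 of 302 aligned columns, or 82.5%, and at 141 of their last 150 bases when set side by side without gaps.

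Values below are log2 expression as deposited, so a difference of 1 is a doubling of the signal, and levels of different genes are not compared. Insr, the deleted gene, was lower in every knockout group, by -0.94 ± 0.10 in untreated colon, -0.84 ± 0.10 after AOM+DSS and -0.65 ± 0.11 in tumors (log2 difference ± SE, limma). The genotypes did not overlap for Insr in either kind of colon, while in tumors 7 of 9 knockout samples were below every fl/fl sample and the other two, replicates 6 and 8, reached 7.79 and 8.35. Some arrays stood apart in tissue makeup. The mean of 14 small-intestinal transcripts was 9.63 in fl/fl AOM+DSS replicate 7 against 7.45 in the next of its group, and it was 8.20 in fl/fl tumor replicate 6 against 6.65. The mean of 4 distal colon Hox genes was 7.08 in knockout untreated replicate 2 against 8.78 in the next. The member counts below were the same without these 3 arrays.

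All 5 genes were far higher in tumors than in colon after AOM+DSS, in both genotypes, and no tumor fell within the range of that colon. The members were chosen with this contrast known, so its values are given as a description with no test. The background is broad: 21% of all genes were called higher in fl/fl tumors at an adjusted p below 0.05 and 21.5% in knockout tumors, and 5.61% and 7.46% lay above AOM+DSS colon without overlap. By size of the rise among the 22180 genes the members ranked from 8 for Ang4 to 26 for Pla2g2a in fl/fl mice and from 6 to 32 for the same genes in knockout mice.

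**Figure D1:**
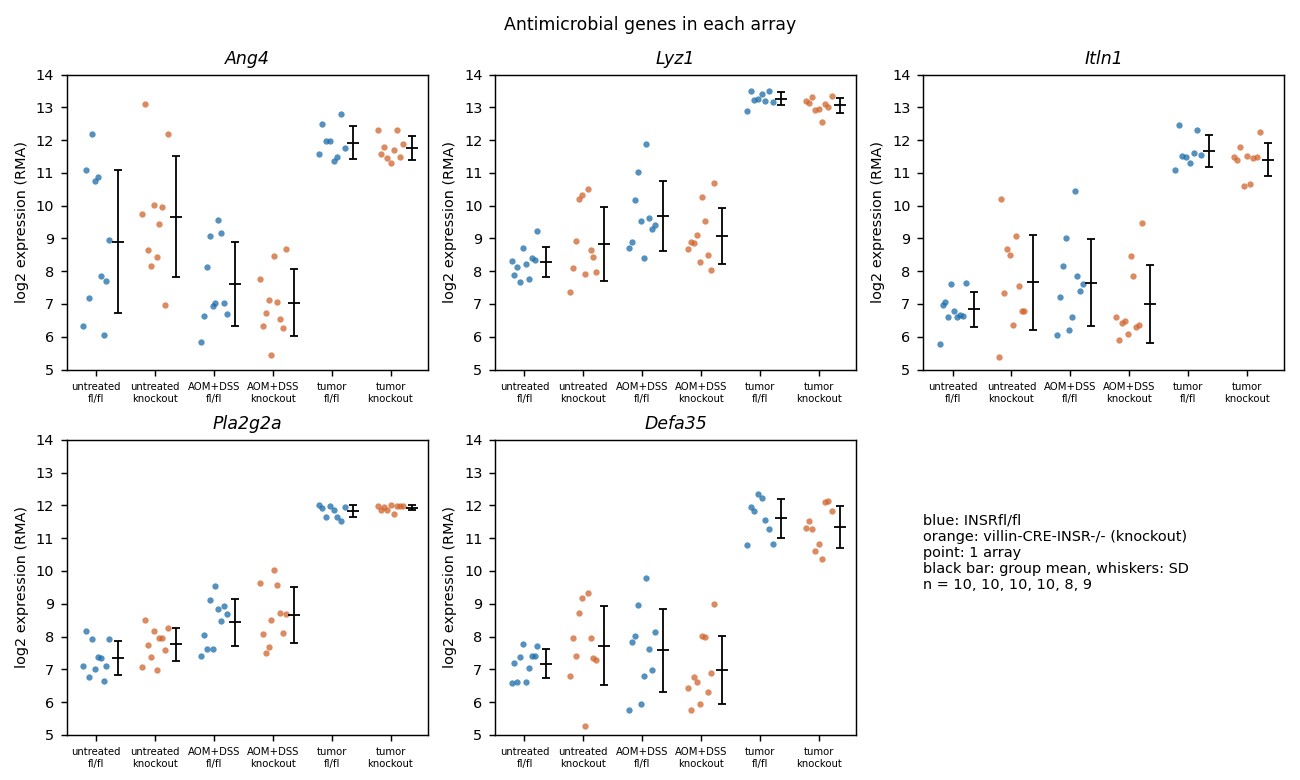
Log2 expression (y axis) of the 5 genes in every array, by group (x axis: untreated colon, AOM+DSS colon and tumor of fl/fl mice in blue and knockout mice in orange; bars and whiskers are means and SDs over 10, 10, 10, 10, 8 and 9 arrays). Every tumor lies above every AOM+DSS colon sample, and Ang4 spreads from 6.05 to 13.10 over untreated colon.

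Lyz1, the Paneth lysozyme, ran from 7.68 to 9.23 in untreated fl/fl colon (median 8.27) and from 7.37 to 10.50 in untreated knockout colon (median 8.54). After AOM+DSS it ran from 8.41 to 11.87 in fl/fl colon (median 9.47) and from 8.04 to 10.69 in knockout colon (median 8.88). In tumors it ran from 12.87 to 13.51 in fl/fl mice (median 13.24) and from 12.56 to 13.35 in knockout mice (median 13.11). The 4 colon groups overlapped one another, and so did the 2 tumor groups, but the lowest tumor was above the highest colon sample of the series. Tumors exceeded AOM+DSS colon by 3.57 ± 0.35 in fl/fl mice, 11.9-fold, and by 3.98 ± 0.34 in knockout mice, 15.8-fold. The highest value of the whole table was 13.96, so Lyz1 in tumors lay near the top of the scale.

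Defa35, the alpha-defensin, had medians of 7.29 and 7.68 in untreated fl/fl and knockout colon, with ranges of 6.57 to 7.79 and 5.28 to 9.34. After AOM+DSS its range was 5.75 to 9.79 in fl/fl colon (median 7.72) and 5.77 to 9.00 in knockout colon (median 6.69). In tumors it ran from 10.80 to 12.35 (median 11.70) and from 10.38 to 12.14 (median 11.32). Colon groups could not be ordered beyond their spread, and tumors stood clear of all of them. The difference of tumor from AOM+DSS colon was 4.02 ± 0.43 in fl/fl mice, 16.2-fold, and 4.36 ± 0.41 in knockout mice, 20.6-fold.

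Itln1, the lectin gene, ran from 5.78 to 7.63 in untreated fl/fl colon (median 6.74) and from 5.38 to 10.20 in untreated knockout colon (median 7.45). After AOM+DSS the range was 6.04 to 10.45 in fl/fl colon (median 7.50) and 5.90 to 9.48 in knockout colon (median 6.46). Tumors held 11.10 to 12.45 in fl/fl mice (median 11.52) and 10.60 to 12.24 in knockout mice (median 11.47). The lowest knockout tumor was 0.41 above the highest knockout colon sample, which was untreated replicate 2. Tumors exceeded AOM+DSS colon by 4.01 ± 0.47, 16.2-fold, and 4.41 ± 0.45, 21.3-fold, in fl/fl and knockout mice.

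Pla2g2a had the least spread of the 5 genes among tumors. Its values ran from 11.53 to 12.00 in fl/fl tumors (median 11.90) and from 11.75 to 12.02 in knockout tumors (median 11.97). In colon it ran from 6.65 to 8.17 (median 7.21) and 6.99 to 8.50 (median 7.85) in untreated fl/fl and knockout mice, and from 7.41 to 9.55 (median 8.58) and 7.49 to 10.04 (median 8.60) after AOM+DSS. The SD was 0.18 and 0.088 in fl/fl and knockout tumors against 0.72 and 0.86 in AOM+DSS colon. Tumors exceeded AOM+DSS colon by 3.39 ± 0.26, 10.5-fold, and 3.28 ± 0.25, 9.72-fold.

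Ang4, the ribonuclease gene, differed from the others in untreated colon. It ran from 6.05 to 12.18 in fl/fl mice (median 8.41) and from 6.96 to 13.10 in knockout mice (median 9.61), a range of 70.2-fold and 70.5-fold between samples of one group. In fl/fl mice, replicates 2, 4, 5 and 6 held 10.75 to 12.18 and the other 6 held 6.05 to 8.96. After AOM+DSS the range was 5.85 to 9.55 (median 7.03) and 5.45 to 8.69 (median 6.90), and in tumors 11.37 to 12.78 (median 11.86) and 11.31 to 12.31 (median 11.71). Tumors exceeded AOM+DSS colon by 4.32 ± 0.64, 20.0-fold, in fl/fl mice and by 4.71 ± 0.62 in knockout mice, but they overlapped untreated colon in both genotypes. Of the 8 fl/fl tumors, 2 were above every untreated fl/fl sample, and of the 9 knockout tumors, 0 were above every untreated knockout sample. For the other 4 genes no tumor overlapped untreated colon of its genotype, as for 8.98% of all genes in fl/fl and 10% in knockout mice, and their differences ran from 3.61 for Defa35 in knockout mice to 4.99 for Lyz1 in fl/fl mice. The difference of tumor from untreated colon was 3.02 ± 0.64 and 2.09 ± 0.62 for Ang4.

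In colon outside tumors, AOM+DSS did not move the 5 genes as a block. In fl/fl mice Lyz1 rose by 1.42 ± 0.33 (adjusted p = 0.00123) and Pla2g2a by 1.10 ± 0.24 (adjusted p = 0.000645), so 2 of 5 members rose where 12.2% of all genes rose and 10.5% fell. Itln1 at 0.81 ± 0.44 (adjusted p = 0.176), Defa35 at 0.41 ± 0.40 (adjusted p = 0.480) and Ang4 at -1.30 ± 0.60 (adjusted p = 0.111) did not pass. Of the 10 treated fl/fl colons, 7 were above every untreated one for Lyz1 and 6 for Pla2g2a. Without untreated replicate 8 Ang4 passed, at -1.61 (adjusted p = 0.0436), and it also passed without untreated replicate 1. With all samples, permutation of the sample labels gave an unadjusted p of 0.122 for Ang4, against 0.0352 from limma.

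In knockout mice Pla2g2a rose by 0.89 ± 0.24 (adjusted p = 0.00323), 1 of 5 members against 16% of all genes called higher. Ang4 was lower by 2.62 ± 0.60 on the log2 scale, or 6.16-fold, with 5 of the 10 treated samples below every untreated one. This fall was known when the genes were chosen and is a description, and 14.2% of all genes were called lower. Lyz1 at 0.24 ± 0.33, Itln1 at -0.67 ± 0.44 and Defa35 at -0.75 ± 0.40 did not pass (adjusted p = 0.632, 0.270 and 0.159), though Defa35 passed without untreated replicate 6, at -1.02 (adjusted p = 0.0365). All 12 genes of a macrophage list rose after AOM+DSS in both genotypes, with medians of 0.83 and 0.84 in fl/fl and knockout mice. All 10 genes of a neutrophil list rose too, with medians of 1.28 and 1.83. Of 10 squamous epithelial genes 6 and 5 rose and 0 fell, with medians of 1.75 and 1.40. With the macrophage mean as a covariate 0 members passed in either genotype, and Ang4 stood at -4.39 in knockout mice. The share of all genes called in that fit is not given, so this count is description only. Less RNA per cell and fewer cells of a type cannot be told apart in these bulk samples.

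**Figure D2:**
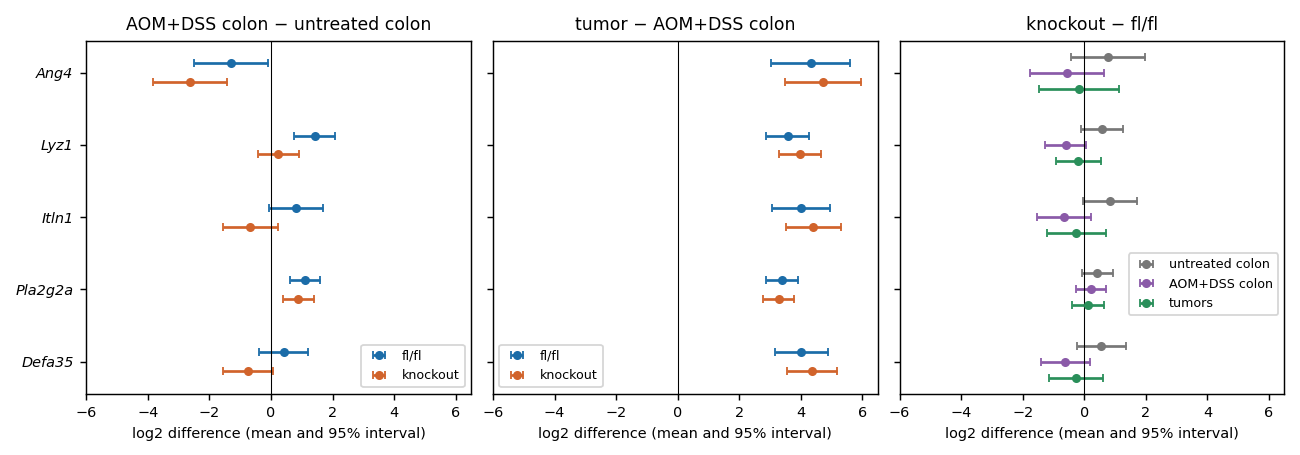
Log2 differences (x axis) with 95% intervals from limma for each gene (y axis): AOM+DSS minus untreated colon and tumor minus AOM+DSS colon in fl/fl (blue) and knockout (orange) mice, and knockout minus fl/fl in untreated colon (grey), AOM+DSS colon (purple) and tumors (green). Fl/fl Ang4 stands at -1.30 after AOM+DSS and fl/fl Lyz1 and Pla2g2a at 1.42 and 1.10, the tumor differences run from 3.28 to 4.71, and every genotype interval includes 0.

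No member differed detectably between the genotypes. In untreated colon all 5 were higher in knockout mice, by 0.43 ± 0.24 for Pla2g2a to 0.82 ± 0.44 for Itln1, and none passed, as was true of all genes but Insr (0.00451% called). After AOM+DSS 4 members were lower in knockout colon, by -0.56 ± 0.60 for Ang4, -0.61 ± 0.33 for Lyz1, -0.66 ± 0.44 for Itln1 and -0.61 ± 0.40 for Defa35, and Pla2g2a was 0.22 ± 0.24 higher, with none called where 0.541% of genes were. In tumors the differences ran from -0.27 ± 0.44 for Defa35 to 0.12 ± 0.27 for Pla2g2a, with 0.00902% of genes called. The 95% interval in tumors was -0.93 to 0.53 for Lyz1, -0.42 to 0.65 for Pla2g2a and -1.48 to 1.14 for Ang4. For Itln1 and Defa35 it reached down to -1.22 and -1.14. A knockout level lower by 1 on the log2 scale lay within these intervals for Ang4, Itln1 and Defa35. The model shares a gene's spread over all 6 groups, and tumors varied less. Their SDs were 0.36 to 0.64 for these 3 genes, against 1.01 to 1.34 in AOM+DSS colon. An interval from tumors alone was not computed. Exact permutation of the tumor labels gave unadjusted p from 0.0825 for Lyz1 to 0.431 for Ang4.

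The test of the difference between genotypes in the AOM+DSS response gave -1.18 ± 0.47 for Lyz1, -1.48 ± 0.62 for Itln1, -1.16 ± 0.57 for Defa35, -1.33 ± 0.85 for Ang4 and -0.21 ± 0.35 for Pla2g2a. Before adjustment p was 0.0153, 0.0207 and 0.0449 for the first 3 genes, and after adjustment over all genes it was 0.803, 0.803 and 0.812, with 0% of all genes called by limma. The small-intestinal list shifted the same way, with a median interaction of -0.76 and 0 of 14 genes called. With that list's mean as a covariate the interaction was -0.74 for Lyz1, -0.90 for Itln1 and -0.60 for Defa35. The genotype difference in the tumor response was 0.39 ± 0.89 for Ang4, 0.41 ± 0.49 for Lyz1, 0.40 ± 0.65 for Itln1, 0.34 ± 0.59 for Defa35 and -0.11 ± 0.36 for Pla2g2a, and 0% of genes were called.

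With the groups pooled, Lyz1, Itln1 and Defa35 were the most closely correlated of the 5 genes. After each group's mean was removed, Itln1 and Defa35 correlated at r = 0.81 (rho = 0.80), Lyz1 and Defa35 at r = 0.78 (rho = 0.71) and Lyz1 and Itln1 at r = 0.78 (rho = 0.76) over the 57 arrays, each with an adjusted permutation p of 3.33e-05 for r and for rho over 10 pairs, from the smallest raw p that the permutations can give, 1e-05. Without the 2 arrays farthest from the median these were 0.83, 0.72 and 0.72. Of the other 7 pairs, 5 also passed at a lower r. Ang4 and Itln1 correlated at r = 0.51 (rho = 0.52, adjusted permutation p = 0.000375 and 0.000275) and Ang4 and Pla2g2a at r = 0.49 (rho = 0.49, adjusted permutation p = 0.000700 and 0.00116), with 0.48 and 0.44 when the 2 farthest arrays were left out. Itln1 and Pla2g2a gave r = 0.43, Pla2g2a and Defa35 0.40 and Ang4 and Defa35 0.36 (rho = 0.42, 0.37 and 0.40, adjusted permutation p = 0.00843, 0.0129 and 0.00946 for r and 0.00583, 0.0131 and 0.00505 for rho), with 0.40, 0.38 and 0.39 when the 2 were left out. Lyz1 and Pla2g2a did not correlate beyond the permutations (r = 0.21, rho = 0.14, adjusted p = 0.202 and 0.376), and the value was 0.18 without the 2 arrays.

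The relation of Ang4 to Lyz1 was not the same in all groups. In untreated colon it was r = -0.19 in fl/fl and -0.25 in knockout mice (n = 10 each), whereas after AOM+DSS it was 0.83 and 0.86, with 0.62 and 0.38 in fl/fl and knockout tumors. Pooled over groups it was 0.20 (adjusted permutation p = 0.202) with a rho of 0.29 (adjusted permutation p = 0.0480), and r rose to 0.33 without the 2 farthest arrays. The difference between the groups' correlations was not tested.

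**Figure D3:**
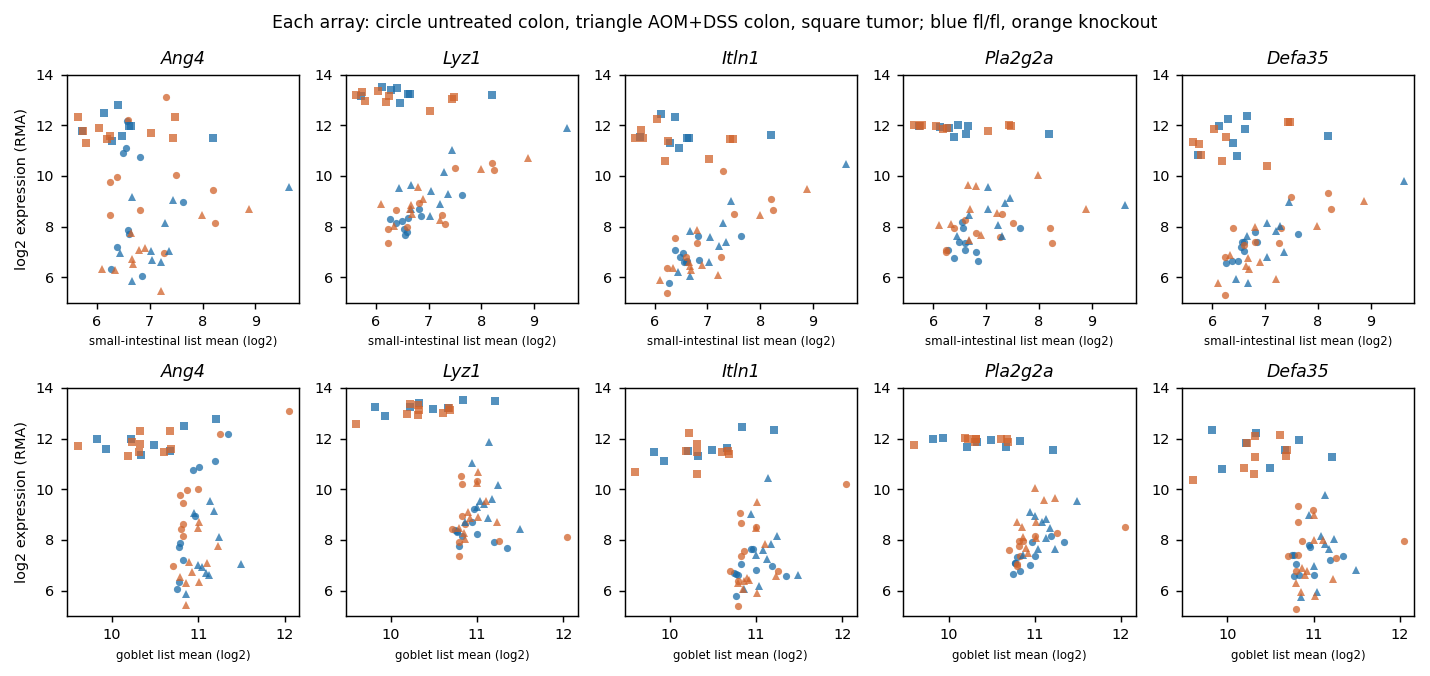
Log2 expression of the 5 genes (y axes) against the mean log2 level of 14 small-intestinal genes (upper row) and 12 goblet cell genes (lower row) in each array, with circles for untreated colon, triangles for AOM+DSS colon and squares for tumors, blue for fl/fl and orange for knockout. Outside tumors Lyz1, Itln1 and Defa35 climb with the small-intestinal mean. For these genes the tumors sit above all colon samples, at small-intestinal means that overlap those of colon.

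In colon outside tumors, Lyz1, Itln1 and Defa35 followed transcripts of small-intestinal enterocytes. Over those 40 arrays, with group means removed, the mean of the 14 small-intestinal genes correlated with Lyz1 at r = 0.79 (rho = 0.58), with Itln1 at 0.81 (rho = 0.72) and with Defa35 at 0.78 (rho = 0.70). Adjusted permutation p was 8.33e-05 for each r and at most 0.00325 for rho, over 50 relations chosen after the data had been seen. Without the 2 arrays with the most extreme list means, r stayed at 0.71, 0.71 and 0.70. Within the 4 colon groups r ran from 0.68 to 0.87 for these 3 genes. Ang4 and Pla2g2a gave r = 0.23 and 0.32 with that list (rho = 0.16 and 0.34), neither past the threshold (adjusted permutation p = 0.251 and 0.158 for r, 0.462 and 0.108 for rho), and 0.06 and 0.36 without those 2 arrays.

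Ang4 and Pla2g2a followed goblet and deep-crypt secretory genes over the same arrays. With the mean of 12 goblet genes, Ang4 correlated at r = 0.69 (rho = 0.70, adjusted permutation p = 8.33e-05 and 0.000167) and Pla2g2a at r = 0.51 (rho = 0.52, adjusted permutation p = 0.000286 and 0.00193) over the 40 colon arrays, and at 0.61 and 0.54 without the 2 extreme arrays. With 8 deep-crypt secretory genes r was 0.73 for Ang4 and 0.61 for Pla2g2a (rho = 0.73 and 0.65, adjusted permutation p = 8.33e-05 for r and 0.000167 for rho), and 0.64 each without the 2 extreme arrays. Pla2g2a also correlated with the macrophage mean at r = 0.40 (rho = 0.40, adjusted permutation p = 0.0366 and 0.0510), and at 0.38 without the 2 arrays extreme in that mean. The goblet relation of Ang4 was strongest in untreated colon, at 0.90 in fl/fl and 0.86 in knockout mice, and it was 0.16 and 0.53 after AOM+DSS. In those AOM+DSS groups Ang4 gave higher values with the small-intestinal mean, 0.58 in fl/fl and 0.70 in knockout mice, and with the mean of the other Paneth genes, 0.78 and 0.86. The goblet and deep-crypt lists share Spink4, Agr2 and Retnlb. Retnlb, which ranged 168-fold in untreated knockout colon, and Spink4 were also among the 5 genes most like Ang4. The list means were not computed without them, so the part of these 2 genes in the relations was not tested. Lyz1 gave r = -0.13 with the goblet mean and Defa35 0.13 (rho = 0.03 and 0.22, adjusted permutation p = 0.657 and 0.641 for r), with -0.01 and 0.15 when the 2 arrays were left out. Itln1 gave r = 0.36 with the goblet mean and 0.37 with the deep-crypt mean (rho = 0.32 and 0.37, adjusted permutation p = 0.106 and 0.0861 for r), and 0.18 and 0.24 without them.

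The mean of the 4 distal colon Hox genes was negatively related to 3 members in colon outside tumors. It gave r = -0.51 with Ang4, -0.49 with Itln1 and -0.44 with Pla2g2a over the 40 arrays (rho = -0.47, -0.42 and -0.55, adjusted permutation p = 0.00333, 0.00975 and 0.000625 for r and 0.00775, 0.0222 and 0.00150 for rho). Without the 2 extreme arrays these were -0.49, -0.48 and -0.46.

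In tumors the small-intestinal relation did not pass for Lyz1, Itln1 or Defa35. Over the 17 tumors the small-intestinal mean gave r = -0.32 with Lyz1, -0.22 with Itln1 and 0.27 with Defa35 (rho = -0.35, -0.37 and 0.29), none past the threshold (adjusted permutation p = 0.406, 0.601 and 0.507 for r), and -0.44, -0.32 and 0.22 without the 2 extreme tumors. The Hox mean was negatively related to Itln1 (r = -0.69, rho = -0.73, adjusted permutation p = 0.0159 and 0.00472) and Lyz1 (r = -0.63, rho = -0.65, adjusted permutation p = 0.0317 and 0.0290), and r was -0.73 and -0.62 without the 2 extreme tumors. For Ang4 it gave r = -0.67 (rho = -0.61, adjusted permutation p = 0.0267 and 0.0545), and -0.43 without those 2. The goblet mean passed on r in tumors with Lyz1 (r = 0.64, rho = 0.51, adjusted permutation p = 0.0267 and 0.108) and Itln1 (r = 0.60, rho = 0.59, adjusted permutation p = 0.0438 and 0.0510), and r was 0.43 and 0.39 without the 2 extreme tumors. For Pla2g2a the goblet mean gave r = -0.28 and the deep-crypt mean -0.44 over the tumors (adjusted permutation p = 0.536 and 0.293). Its goblet relation was -0.63 in fl/fl and 0.56 in knockout tumors. The difference between colon and tumors in these relations was not tested.

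The genes most like each member were found by r of group-centred values over 57 arrays. For Ang4 they were Retnlb (r = 0.75), an antimicrobial goblet product, and then Ddah1, Rgs13, Apol10a and Spink4 at 0.56 to 0.61. For Lyz1 they were Defa24 (0.87), Defa33, Defa26, Lgals2 and Arg2. For Itln1 they were Defa24 (0.87), Defa26, Defa33, Defa35 and Mptx2, and for Defa35 they were Defa24 (0.90), Defa26, Defa41, Defa34 and Mptx2, a pentraxin of Paneth cells. For Pla2g2a they were Mfsd2a (0.76), Slc9a3, Ripk3, Sgk2 and Sec23b, none of them in the goblet or deep-crypt lists. Alpha-defensins are near-identical copies of one another, so their probe sets may read each other's transcripts and the split among them is uncertain.

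In tumors most other alpha-defensins and many other Paneth genes were also high. Of 12 further alpha-defensin genes and pseudogenes with a probe set of their own, 7 rose in fl/fl tumors against AOM+DSS colon and 9 in knockout tumors, 0 fell, and the medians were 0.63 and 2.20 against 0.02 and 0.00 over all genes. Defa41 rose by 3.95 ± 0.31 and 4.12 ± 0.30 in fl/fl and knockout mice, Defa24 by 3.56 ± 0.55 and 4.28 ± 0.53, and Defa33 by 3.07 ± 0.34 and 3.44 ± 0.33, with limma adjusted p of 1.89e-07 or less. On 9 more probe sets that carry several alpha-defensin symbols, and so name no gene, the median difference was 3.40 and 3.67. In AOM+DSS colon against untreated colon 0 of the 12 rose in either genotype, and 1 fell in knockout mice, Defa40. The list was chosen with results on these samples known and is not independent of them.

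Of the 14 measured genes of the Paneth list beyond the members and the defensins, 8 rose in fl/fl tumors and 10 in knockout tumors against AOM+DSS colon, 0 fell, and the medians were 0.73 and 1.16. In AOM+DSS colon against untreated colon, 2 of these rose in each genotype and 2 fell in knockout mice. Habp2, which encodes a serine protease, rose by 3.83 ± 0.13 and 3.60 ± 0.13, and Reg3g, a bactericidal lectin, by 3.19 ± 0.68 and 3.96 ± 0.66. Mmp7, the activator of alpha-defensins, ran from 11.74 to 12.53 over all tumors, above every colon sample (highest 8.20). Sox9, a transcription factor that Paneth cells need, rose by 0.94 ± 0.13 and 1.15 ± 0.13, and Wnt3, the Paneth cell's Wnt ligand, by 0.78 ± 0.11 and 0.83 ± 0.11. Gfi1 and Xbp1, 2 regulators of secretory cells, gave 0.02 ± 0.10 and 0.18 ± 0.10, and 0.00 ± 0.06 and 0.02 ± 0.06, and did not pass. Mptx2 ran from 7.57 to 11.58 in fl/fl tumors and from 4.84 to 11.15 in fl/fl AOM+DSS colon, and the knockout groups also overlapped. In fl/fl mice its tumor difference did not pass in 17 of 18 fits that left out 1 array, and that of Reg3b in 18 of 18. In knockout mice both genes passed in all 19 such fits. These are transcript levels of bulk tissue, and no cell type is named from them.

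**Figure D4:**
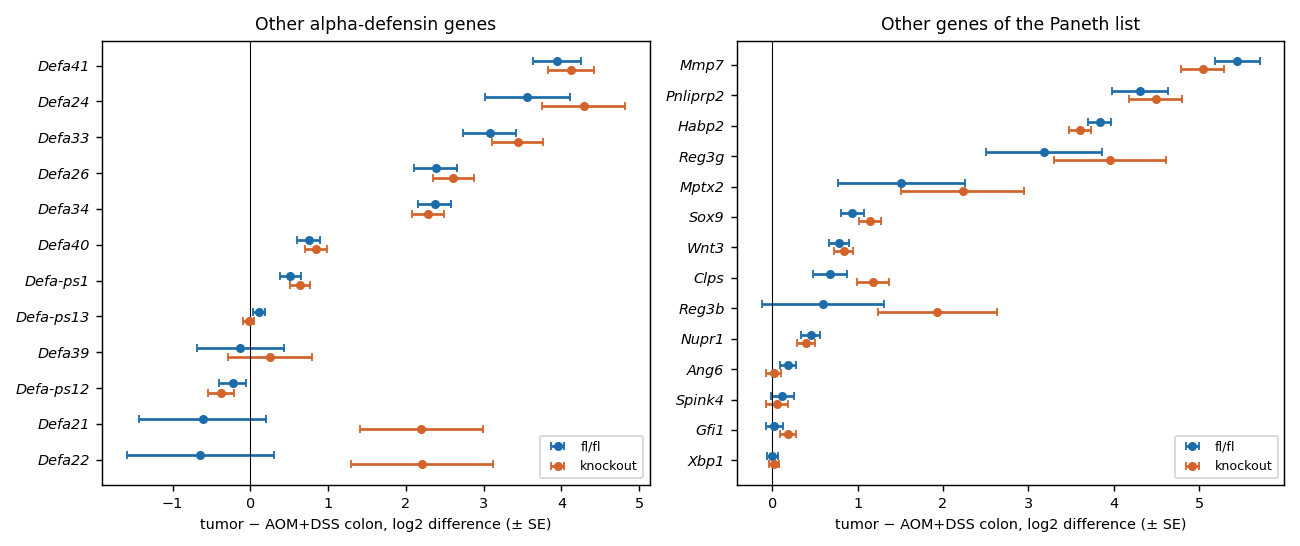
Tumor minus AOM+DSS colon (x axis, log2 difference ± SE from limma) for 12 other alpha-defensin genes (left) and 14 other genes of the Paneth list (right) in fl/fl (blue) and knockout (orange) mice. Most lie above 0 in both genotypes, whereas Defa21 and Defa22 lie at -0.61 and -0.64 in fl/fl and at 2.20 and 2.21 in knockout mice.

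Defa21, Defa22 and Defa39 were not high in all tumors as Defa35 was. With group means removed, Defa35 correlated at r = 0.09 with Defa21 and 0.06 with Defa22. With Defa39 it correlated at r = 0.68 (rho = 0.67). That relation was 0.75 and 0.80 in untreated fl/fl and knockout colon and 0.96 and 0.95 after AOM+DSS, but -0.05 and 0.51 in tumors. Defa21 ran from 8.97 to 11.51 in knockout tumor replicates 2, 3, 4 and 6 and from 5.18 to 5.59 in the other 5, and in fl/fl tumors replicate 6 held 10.80 and the other 7 held 4.71 to 5.79. Defa22 was high in the same samples, at 8.90 to 11.61 in those 4 knockout tumors and at 10.69 in fl/fl tumor replicate 6. In AOM+DSS colon of fl/fl mice, Defa21 was 10.37, 9.13 and 9.75 in replicates 2, 7 and 8 and 5.58 or less in the other 7. These samples were singled out after their values were seen. In knockout colon the highest Defa21 values were 8.41 in untreated replicate 8 and 7.80 in AOM+DSS replicate 1.

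For knockout tumors against AOM+DSS colon, Defa21 differed by 2.20 ± 0.79 (adjusted p = 0.0196) and Defa22 by 2.21 ± 0.91 (adjusted p = 0.0450). Leaving out 1 array ended these calls in 2 and 12 of 19 cases, and without knockout tumor replicate 2 the adjusted p was 0.0750 and 0.152. The genotype difference in the tumor response was not called for either gene. Defa39 gave -0.13 ± 0.56 and 0.25 ± 0.54 in fl/fl and knockout mice and overlapped between tumors and colon.

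**Figure D5:**
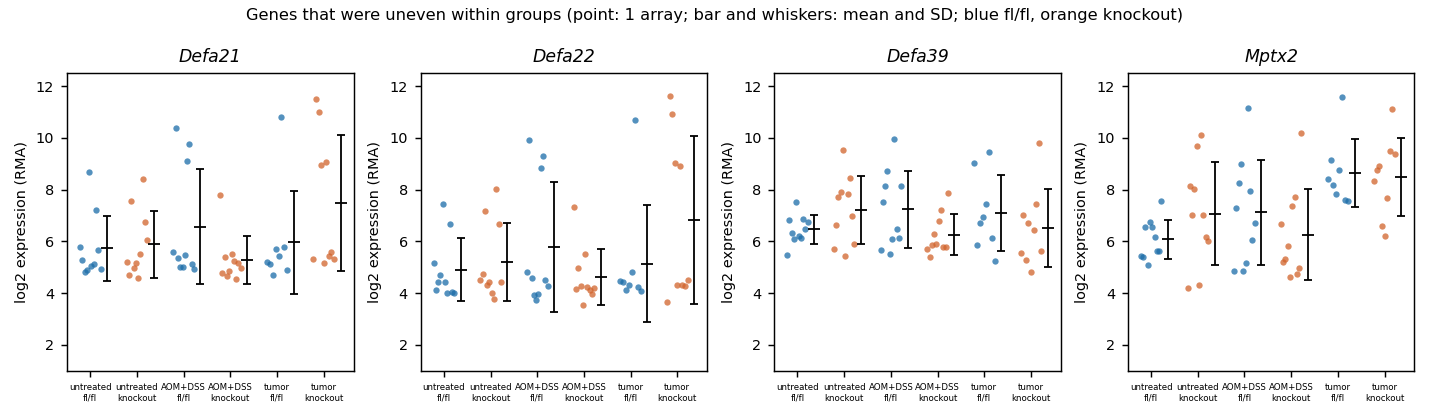
Log2 expression (y axis) of Defa21, Defa22, Defa39 and Mptx2 in every array, by group (blue fl/fl, orange knockout; bars and whiskers are means and SDs). Defa21 and Defa22 are near 11 in some tumors and near 5 in others of the same group.

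Most relatives outside the alpha-defensins did not rise in tumors. Of 9 other lysozyme family genes 1 rose, and it was Lyz2. Lyz2, the macrophage lysozyme gene, ran from 9.86 to 10.95 and from 10.16 to 10.70 in untreated fl/fl and knockout colon, from 10.79 to 11.70 and 11.13 to 11.51 after AOM+DSS, and from 11.45 to 11.92 and 11.36 to 12.12 in tumors. It rose after AOM+DSS by 0.71 ± 0.10 in fl/fl mice (adjusted p = 2.36e-07) and by 0.85 ± 0.10 in knockout mice (adjusted p = 7.63e-10). Tumors exceeded AOM+DSS colon by 0.59 ± 0.10 and 0.30 ± 0.10 for Lyz2, against the 3.57 and 3.98 of Lyz1. Lyz1 and Lyz2 transcripts are close in sequence, and whether either probe set reads the other's transcript was not tested.

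The other relatives went several ways. Of 12 other ribonuclease A genes 1 rose in tumors of each genotype, and it was Rnase1, at 3.29 ± 0.19 and 3.48 ± 0.18, while the angiogenins Ang2 and Ang6 gave differences between -0.18 and 0.19 that did not pass. Of 10 other secreted phospholipases, 2 rose and 5 fell in fl/fl tumors and 3 rose and 5 fell in knockout tumors. Pla2g12a rose by 1.29 ± 0.10 and 1.23 ± 0.10, and Pla2g10 fell by 0.91 and 0.76. Of 8 other lectins, 2 rose and 3 fell in fl/fl tumors and 3 rose and 3 fell in knockout tumors, with Zg16, a goblet lectin, at -1.66 ± 0.24 and -1.44 ± 0.23.

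Markers of other cell types gave these values beside the tumor rise of the 5 genes. The share of all genes called lower in tumors is not given. Counts of genes that fell, here and among the relatives above, are therefore description only. Of 12 goblet genes 7 fell in fl/fl tumors and 9 in knockout tumors, with medians of -0.66 and -0.61, among them Atoh1, the regulator of all secretory cells, at -1.27 ± 0.13 and -1.05 ± 0.13. Of 14 small-intestinal genes 4 and 5 fell and 0 rose, with list means of 5.72 to 8.20 in fl/fl and 5.63 to 7.48 in knockout tumors against 6.44 to 9.63 and 6.10 to 8.88 in AOM+DSS colon. Of the 12 macrophage genes 1 rose in each genotype and 3 and 7 fell, and of 10 neutrophil genes 5 and 4 rose and 1 fell in each, with 3 to 7 rising in fl/fl tumors when 1 array was left out. Of 8 deep-crypt secretory genes 2 rose and 3 fell in each genotype, and of 10 squamous epithelial genes, which would mark anal tissue, 0 rose and 3 and 5 fell. That squamous count ran from 0 to 7 in fl/fl and from 3 to 8 in knockout tumors when 1 array was left out, and it was 0 and 4 without the 3 arrays that stood apart. All 10 measured Wnt target genes rose in tumors of both genotypes, with medians of 1.90 and 1.98, from 0.68 for Ephb3 to 5.10 for Notum in fl/fl mice. All 8 colonocyte genes fell, with medians of -2.40 and -2.19. Of the 4 distal colon Hox genes 3 fell in fl/fl tumors and 2 in knockout tumors. The part of any of these shifts in the rise of the 5 genes was not tested. Only the macrophage and small-intestinal list means were used as covariates. Genes of both lists differed between the groups, so those fits do not measure such a part.

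Cytokine genes that are known to act on these products in other settings were also listed. Of 13 genes of type 2 immunity, 3 rose and 3 fell in fl/fl tumors against AOM+DSS colon and 2 rose and 3 fell in knockout tumors. Il33 rose by 0.78 ± 0.19 and 0.77 ± 0.18 and Il4ra by 0.71 ± 0.12 and 0.30 ± 0.12, while Retnla fell by 2.82 and 2.23. Retnlb, whose level followed Ang4 within groups, gave 0.00 ± 0.64 and -0.15 ± 0.62 in the same comparison and did not pass. Of 10 genes around interleukin 22, 3 rose and 3 fell in fl/fl tumors and 4 rose and 3 fell in knockout tumors, with Il22 itself at 0.02 ± 0.06 and -0.03 ± 0.06.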

How the data were processed

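RNA from distal colon and tumors was amplified from 250 ng with the WT Plus kit and hybridised to Affymetrix arrays that probe whole transcripts, as the labels' protocols state. The deposited values are log2 expression, and the tool named per the submitters' processing notes is RMA. This method subtracts background, quantile-normalizes arrays and summarises probes, so shifts of total RNA cannot be seen and the lowest and highest signals are compressed. For its version and filters, the sources used here state nothing. Of 41345 probe sets, 23521 carried 1 gene symbol, 1814 several and 16010 none. The brightest probe set of each gene was kept, which left 22180 genes, with no dim gene removed. Samples were grouped by their titles.

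Comparisons used limma 3.58.1 in R 4.3.3 (lmFit, contrasts.fit, eBayes) on a model of 6 groups over 57 arrays with 51 residual degrees of freedom, two-sided, with Benjamini-Hochberg adjustment over all genes and a threshold of 0.05. Limma p-values measure the spread between samples, taken as the same in all 6 groups for a given gene. All tests treated samples as independent. Correlations used values minus group means, with 100000 permutations within groups. The limma test of tumor against AOM+DSS colon in fl/fl mice was checked on simulated data with equal spread in all groups. That check does not cover unequal spreads, such as those of Ang4 and Pla2g2a, and the permutations were not checked. Arrays have no read depth, and their number limits the precision. No 2 arrays correlated above 0.9945.

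The members, gene lists and rules were chosen with earlier results of these data known. Every member was named in each comparison, with up to 4 genes of smallest adjusted p per list described, close relatives of the members, and the 5 most correlated genes per member (predicted models, small RNAs and receptor, immunoglobulin, olfactory, vomeronasal and histone genes left out). Values of a few further list genes are given as examples chosen after they were seen. Alternatives were other scalings, a filter at a mean of 5, averaging all probe sets of a gene, a robust fit with an intensity trend, array weights, the replicate number as a block, the compared groups alone, list means as covariates, and each array left out. A fit without 3 arrays was added after seeing the data. Promoters came from RefSeq, and the planned comparison of protein sequences was not run.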

Additional observations from a re-analysis of the deposited data

Results flagged for a closer look

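The values of the 5 genes, 8 other genes and 6 list means were searched in each of the 6 groups, 114 searches in all, for a sample far from the rest of its group by Dixon's criterion, which flags about 1 group in 20 by chance. None of the 5 genes was flagged in any group. Among the other genes, fl/fl tumor replicate 6 was far above the other fl/fl tumors for Mptx2 (11.58), Defa21 (10.80) and Defa22 (10.69). Knockout AOM+DSS replicate 1 was the highest of its group for Defa21 (7.80) and Defa22 (7.33). Lyz2 was 11.70 in fl/fl AOM+DSS replicate 4, and Retnlb was 5.26 in fl/fl AOM+DSS replicate 1, the lowest of that group.

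Of the list means, that of the other Paneth genes was highest in fl/fl AOM+DSS replicate 7 (8.79) and knockout AOM+DSS replicate 10 (8.45), 2 samples that also held the highest Ang4, Lyz1, Itln1 and Defa35 of their groups. The alpha-defensin mean was 8.30 in fl/fl tumor replicate 6. The goblet mean was 12.05 in knockout untreated replicate 2, the sample with the highest Ang4 of the series, and 9.60 in knockout tumor replicate 6, the lowest of its group. The macrophage mean was 8.56 in fl/fl untreated replicate 4. The small-intestinal mean was 7.63 in fl/fl untreated replicate 10, 9.63 in fl/fl AOM+DSS replicate 7 and 8.20 in fl/fl tumor replicate 6. The mean of the distal colon Hox genes was 7.08 in knockout untreated replicate 2. No cause was tested for any of these samples.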

How the results depend on the processing

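The number called kept within 1.5 times its value in all 248 pairings of a comparison with a left-out array. It also did so in 121 pairings of a result with another setting. In the 5 comparisons between genotypes it was 0 throughout. For the contrasts known when the genes were chosen these counts support nothing. The 2 exceptions were AOM+DSS against untreated colon with the macrophage list mean as a covariate, where 0 members passed in fl/fl and 0 in knockout mice. The share of all genes called in that fit is not given, so these counts are description only. The macrophage list differs between these groups, so the covariate takes up part of the contrast. With it Pla2g2a reversed to -0.15 for AOM+DSS against untreated colon in knockout mice, to -0.092 for knockout against fl/fl AOM+DSS colon and to 0.13 for the genotype difference in the tumor response. With the small-intestinal mean as a covariate Defa35 reversed to -0.10 for AOM+DSS against untreated colon in fl/fl mice. Leaving out 1 array, the genotype difference in the tumor response of Pla2g2a ranged from -0.23 to 0.049, with 3 reversals. Without fl/fl untreated replicate 1 or 8, Ang4 passed in fl/fl AOM+DSS colon, at -1.61 for the latter, and without knockout untreated replicate 6 Defa35 passed in knockout AOM+DSS colon, at -1.02. With the macrophage covariate the tumor difference of Ang4 from untreated colon was 1.73 in fl/fl and 1.08 in knockout mice. The cause was not tested where none is named. Correlations between samples with the same replicate number ran from -0.33, with a mean of at most 0.10 in any pair of groups. The highest mean was 0.096, between fl/fl and knockout tumors, against -0.012 for different numbers, and 5 of those 8 pairs were over 0.1. With the replicate number as a block, 2 members were called after AOM+DSS in fl/fl mice, as without it. In each of the 5 comparisons between genotypes 0 were called, also as without it. Signals near the top of the scale limit what can be said of differences among tumors.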
